A study of Mus musculus with 18 samples.

Results

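RNA of the transgenic mouse cerebellum was compared between postnatal week 12 and week 5, using the 6 libraries labelled ATXN1[30Q]D776/Cck-/- at these ages, 3 at each, of the 18 libraries of the series. The series holds mouse cerebellum of 2 genotypes at 3 ages, and its title concerns the CCK1 receptor, mTORC1 signalling and Purkinje cells in models of spinocerebellar ataxia. Every animal is of the FVB strain and is labelled as lacking Cck, the gene of the neuropeptide cholecystokinin, on both alleles, and no group with intact Cck was analysed here. The transgenic animals carry in addition a transgene for human ataxin-1 with the tract written 30Q in the label and an aspartate in place of a serine that is normally phosphorylated (D776 in the label), and the labelled Cck-/- animals without it, 3 libraries at week 5 and 3 at week 12, served as the comparison. As background that the labels do not give, ATXN1 transgenes of this kind are driven by the promoter of Pcp2, a gene of Purkinje cells, so that only a small share of the cells in a cerebellum carries the protein. Values were FPKM, fragments per kilobase of transcript scaled to library size, for whole cerebellum. A gene was tested when it reached 1 FPKM in at least 3 of the 18 libraries, which 13487 of 22783 genes did.

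Ataxin-1 is a nuclear protein that represses transcription together with Capicua, and phosphorylation of that serine affects its binding partners, a state the aspartate imitates. Purkinje cells are the output neurons of the cerebellar cortex, and their loss of function gives ataxia. Between weeks 5 and 12 the mouse cerebellum passes from the juvenile to the adult state, a period in which active myelin formation by oligodendrocytes ends. Whole-tissue RNA reports all cell types at once, so that fewer cells of a type and less RNA per cell cannot be told apart.

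Several library facts bear on the results. Cck stood at 81.0, 112 and 102 FPKM in the transgenic libraries of week 5 and 17.1, 14.4 and 12.8 FPKM at week 12. All 6 values are above 0 although the animals are labelled Cck-/-, and the 3 of week 5 stand far above the rest of the series. Differences by age among these libraries therefore cannot be told apart from differences that accompany the Cck level. Choroid plexus genes were low in 2 transgenic week 5 libraries. Their mean log2(FPKM + 1) over 20 markers was 1.25 in replicate 1, 1.15 in replicate 2 and 4.02 in replicate 3, against 3.92, 2.69 and 3.25 at week 12. Ttr, the transthyretin gene that dominates choroid plexus RNA, stood at 43.1, 17.99 and 2678 FPKM at week 5, then at 2669, 892 and 1530 at week 12. Of the 20 markers, 14 were under 1 FPKM in replicate 1 and 14 in replicate 2 of week 5, and none was at 0 in any of the 6 libraries. Xist, expressed from the inactive X chromosome, and the mean of Y-linked genes were both above 1 FPKM in transgenic week 12 replicate 2 (58.8 and 1.90 FPKM). By these measures Xist prevailed in week 5 replicate 1 (99.6 against 0.41 FPKM) and week 5 replicate 3 (61.2 against 0.0034). Xist also prevailed in week 12 replicate 1 (107 against 0.015). Y-linked RNA prevailed in week 5 replicate 2 (16.0 against 0.081) and week 12 replicate 3 (16.8 against 0.088). Sex-linked RNA was thus mixed within each age and not balanced between the ages. Whether each library is a separate animal is not stated in the labels, so p-values measure the spread between libraries, which may be technical. Genes of tissue rostral and caudal to the cerebellum were low, with means of 0.41 to 0.58 for the forebrain and midbrain list and 0.62 to 0.84 for brainstem and cerebellar nuclei, against 6.47 to 6.72 for granule neurons and 5.35 to 5.58 for Purkinje cell identity genes. Correlations of log2 values over the tested genes ran from 0.990 to 0.994 within the transgenic groups and from 0.985 to 0.991 between them.

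Few genes were called between week 5 and week 12 in the transgenic cerebellum, and those called were split evenly between directions. Falls that held in every refit were seen in the alpha-tubulin gene Tuba1c, Cck, the phospholipase gene Pla2g4e, the secretory chaperone gene Scg5 and the myelin lipid enzyme genes Ugt8a and Fa2h. The largest rises among named genes were in the lipid enzyme gene Etnppl, Ctxn3, the cytokine gene Il33 and genes of class I antigen presentation. The calls of Etnppl, Ctxn3 and Il33 held in every refit, while those of the class I genes were lost without week 12 replicate 2. By limma, 161 of 13487 genes were called at an adjusted p under 0.05, which is 1.19% of those tested. Of these, 80 were higher at week 12 (0.593%) and 81 lower (0.601%), and their median absolute log2 change was 0.38. At all 161 the values of the week 5 and week 12 libraries did not overlap, and this held for 2390 genes (17.7%) over the whole table. At an unadjusted p under 0.05 there were 1821 of 13487 genes, and counts of list members at that threshold are to be read against this.

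In the Cck-/- libraries without the transgene, which share no library with the transgenic ones, the same ages differed at 1595 genes (11.8%), 714 higher (5.29%) and 881 lower (6.53%). The 2 comparisons called 69 genes in the same direction, 28 higher and 41 lower. They make up 42.9% of the transgenic calls and 4.33% of the Cck-/- calls. Aaed1 and Mcur1 were called in opposite directions. Of the 161 transgenic calls, 137 had the same sign in Cck-/-. Of the 1595 Cck-/- calls, 1382 had the same sign in the transgenic libraries, and 1559 were smaller there, with a median absolute log2 change of 0.11 against 0.30. The Cck-/- calls were chosen on the second of these values, and over all tested genes the medians were 0.069 and 0.093. A direct test of the difference between the genotypes, the transgenic change minus the Cck-/- change, called 90 genes (0.667%), 61 with a positive difference (0.452%) and 29 with a negative one (0.215%). Among the 161 transgenic calls, 35 carried such a difference.

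**Figure D1:**
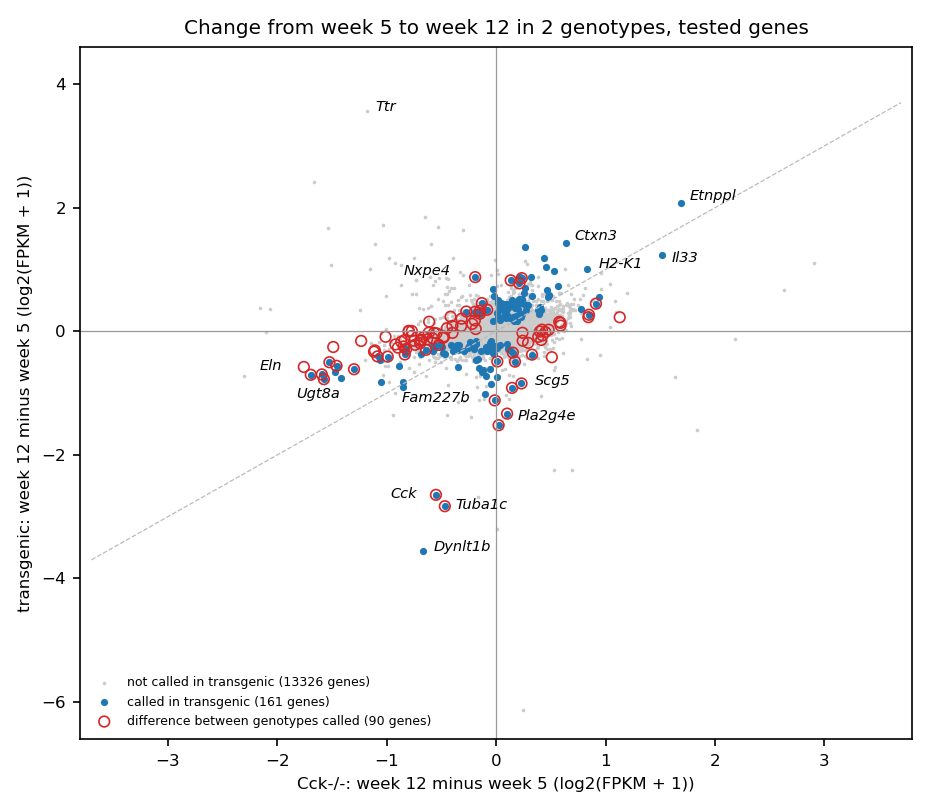
Change from week 5 to week 12, in log2(FPKM + 1), in the Cck-/- libraries (horizontal axis) and in the transgenic libraries (vertical axis), for each tested gene as a point. Blue points are the 161 genes called in the transgenic comparison and red rings the 90 whose difference between genotypes was called, and the dashed line marks equal change. Many ringed genes lie far to the left and near 0 on the vertical axis, while Cck, Tuba1c, Pla2g4e, Scg5 and Fam227b lie low, at -0.55 to 0.23 on the horizontal axis, and Ttr lies at 3.56 without a call.

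A set of falls came from genes whose mean was higher in the transgenic week 5 libraries than in each of the other 5 groups. Tuba1c, which encodes an alpha-tubulin, the building block of microtubules, stood at 19.8, 20.3 and 22.6 FPKM in the week 5 libraries, then at 3.04, 1.56 and 1.79 at week 12. The groups were far apart, and the change was -2.83 on the log2(FPKM + 1) scale, SE 0.22, adjusted p = 7.13e-06 (limma). In Cck-/- it stood at 2.27 ± 0.248 and 1.37 ± 0.308 FPKM (mean ± SD, n = 3 each), and the difference between genotypes was -2.36, SE 0.32, adjusted p = 0.00316 (limma). Its near-identical relatives Tuba1a and Tuba1b had values of 0.20 and 0.19 without a call (adjusted p = 0.103 and 0.0705; limma). For Tuba1a, which fell by 0.32 in Cck-/-, the difference between genotypes was called at 0.52 (adjusted p = 0.0064). How reads were split between such copies is uncertain. Of 12 tubulin genes, Tuba1c was the single transgenic call, and the list median was 0.016.

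Cck fell from 98.1 ± 15.6 to 14.8 ± 2.21 FPKM (mean ± SD, n = 3), a change of -2.65, SE 0.23, adjusted p = 1.76e-05 (limma). The week 12 level was close to that of the Cck-/- libraries of the same age, 13.9 ± 2.74 FPKM, and the difference between genotypes was -2.10, SE 0.32, adjusted p = 0.0064. Scg5 encodes the chaperone 7B2 of the prohormone convertase of secretory granules. It stood at 266, 243 and 257 FPKM at week 5, then at 124, 148 and 154 at week 12. The lowest week 5 value lay well above the highest of week 12, and Scg5 fell by 0.84 (SE 0.08, adjusted p = 4.59e-05; limma), with a difference from Cck-/- of -1.08 (adjusted p = 0.00123). These were the 2 calls among 24 tested genes of neuropeptides and secretory granules, whose median was 0.045. In the same list 3 members were called higher in Cck-/- (5.29% of all tested genes were).

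Pla2g4e encodes an enzyme of phospholipid metabolism. It stood at 7.44, 7.75 and 7.31 FPKM in the week 5 libraries, then at 2.27, 2.09 and 2.80 at week 12, which left the groups widely apart (-1.33, SE 0.12, adjusted p = 2.55e-05; limma). In Cck-/- it was near the week 12 level at both ages, 1.73 ± 0.299 and 1.92 ± 0.281 FPKM, and the difference between genotypes was -1.43 (adjusted p = 0.0014). Fam227b was low throughout, at 1.54, 2.33 and 1.81 FPKM at week 5, then at 0.397, 0.355 and 0.223 at week 12. All 3 values of week 12 lay below those of week 5 (-1.12, SE 0.11). Fam227b reached 1 FPKM in no library but the 3 of transgenic week 5, so it entered the test only through the group where it is high, and its calls support nothing. The calls of Tuba1c, Cck, Scg5 and Pla2g4e, for the change and for the difference, held in every fit that left out 1 library and in each other alternative in which the gene was tested. At week 28 the mean transgenic levels were 1.61 FPKM for Tuba1c, 6.51 for Cck, 159 for Scg5, 4.74 for Pla2g4e and 0.688 for Fam227b.

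**Figure D2:**
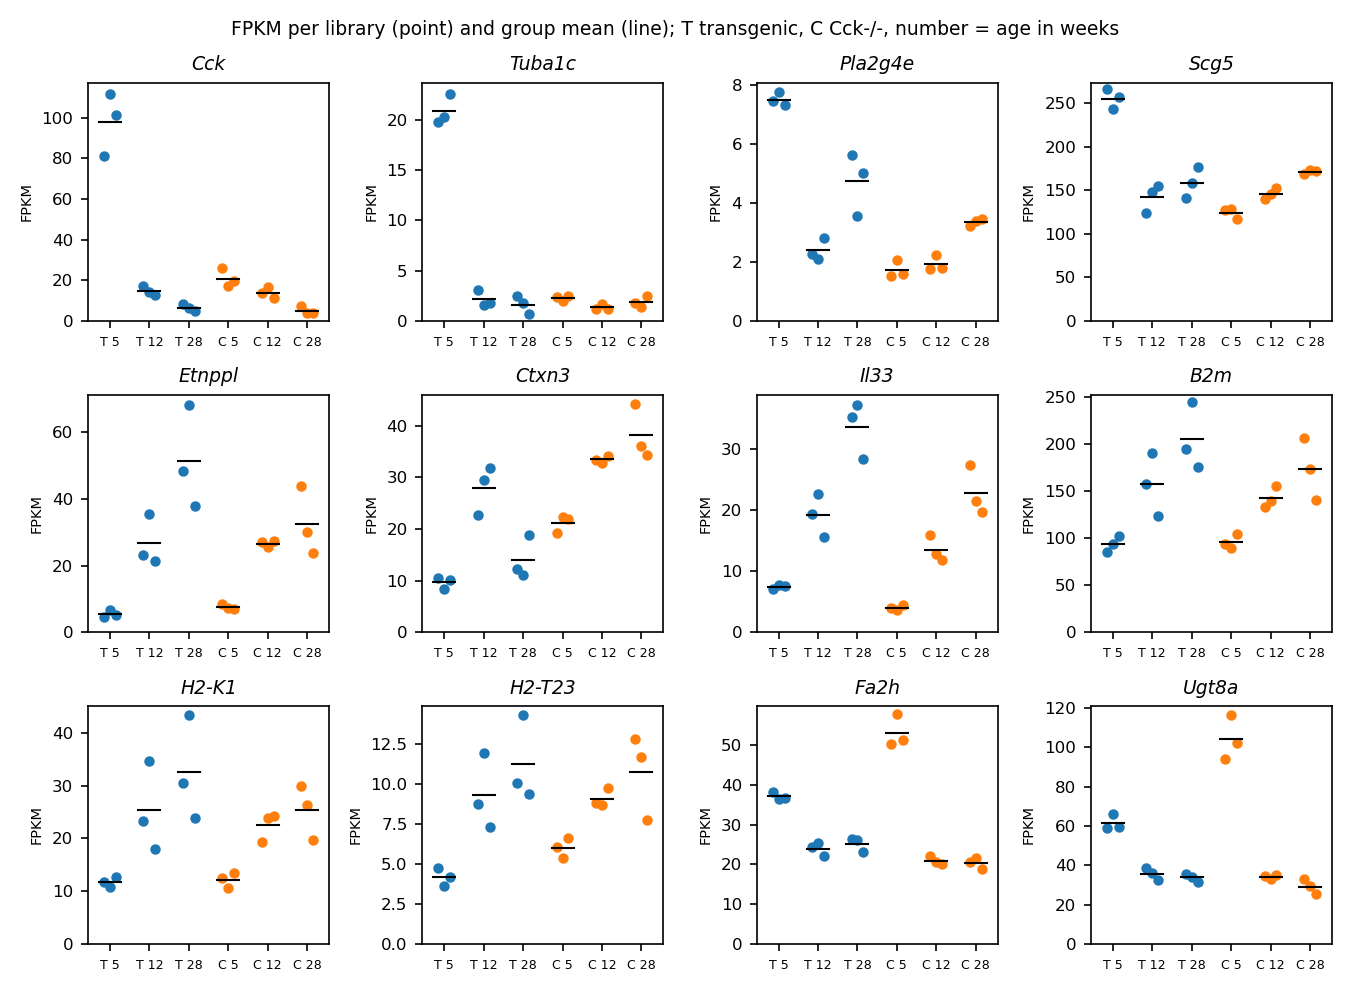
FPKM of 12 genes in each library (points) with the group mean (line), for transgenic (T, blue) and Cck-/- (C, orange) libraries at weeks 5, 12 and 28, each panel on its own linear axis from 0. Cck, Tuba1c, Pla2g4e and Scg5 stand high in the transgenic week 5 libraries, Etnppl and Il33 rise in both genotypes, and Fa2h and Ugt8a start higher in Cck-/- and reach similar levels at week 12.

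Other large falls held in fewer refits. Galr1, a receptor for the neuropeptide galanin, stood at 2.97, 5.61 and 5.38 FPKM in the week 5 libraries, then at 2.53, 1.60 and 1.22 at week 12. The groups did not overlap but lay close, and the fall was 1.01 on the log2 scale (SE 0.22, adjusted p = 0.04; limma). The call was lost in 4 of 6 fits without 1 library, with the highest adjusted p (0.14; limma) without week 5 replicate 2. Rapgefl1, related to exchange factors of small GTPases, fell from 26.1 ± 2.38 to 13.7 ± 3.41 FPKM (mean ± SD, n = 3), and it fell alike in Cck-/- (-0.90 and -0.85). Its call in the transgenic libraries was lost in 4 of 6 fits without 1 library, with the highest adjusted p (0.0877; limma) without week 12 replicate 3. Dynlt1b, a dynein light chain gene, was at 18.1, 3.50 and 18.5 FPKM at week 5, was listed at 0 in 2 week 12 libraries and stood at 0.0455 FPKM in the remaining replicate 3. Tmem181a, from the same part of chromosome 17, stood at 16.2, 9.86 and 14.9 FPKM at week 5, then at 6.97, 6.25 and 7.57 at week 12. Both belong to genes with near-identical copies there, so their values are uncertain. Each lost its call in 5 of 6 fits without 1 library, with the highest adjusted p (0.15 and 0.1; limma) without week 5 replicate 1.

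Genes that rose were led by Etnppl, whose product breaks down phosphoethanolamine. It stood at 4.62, 6.73 and 5.21 FPKM in the week 5 libraries, then at 23.3, 35.4 and 21.5 at week 12. Every week 12 value was far above those of week 5 (2.07, SE 0.23, adjusted p = 0.000233; limma). Etnppl rose in Cck-/- too, by 1.69, and a difference was not called (0.38, SE 0.32, adjusted p = 0.69). Ctxn3, a small membrane protein gene, stood at 10.5, 8.44 and 10.2 FPKM and then at 22.8, 29.5 and 31.8, without overlap (1.43, SE 0.16, adjusted p = 0.000233; limma). In Cck-/- it rose by 0.64, from 21.2 ± 1.68 to 33.5 ± 0.674 FPKM, and its mean in the transgenic libraries of week 28 was 14.1 FPKM against 38.2 in Cck-/-.

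Il33 encodes a nuclear cytokine that is released on cell damage. It stood at 7.04, 7.82 and 7.61 FPKM at week 5, then at 19.4, 22.7 and 15.6 at week 12, all above week 5 (1.24, SE 0.14, adjusted p = 0.000285; limma). The rise in Cck-/- was 1.52, from a lower start of 4.04 ± 0.41 FPKM. The calls of Etnppl, Ctxn3 and Il33 held in every fit without 1 library and in every alternative run. Neat1, the long noncoding RNA of nuclear paraspeckles, and Hrh2, a histamine receptor gene, also rose in both genotypes, by 0.55 and 0.56 in the transgenic and by 0.94 and 0.47 in the Cck-/- libraries. Neat1 lost its transgenic call in 4 of 6 fits without 1 library, with the highest adjusted p (0.0973; limma) without week 12 replicate 2. Hrh2 lost its call with only the groups compared (adjusted p = 0.131) and without the libraries low in choroid plexus genes (adjusted p = 0.237).

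Cpne8, a gene of the calcium-dependent membrane-binding copines, stood at 24.5, 21.9 and 20.7 FPKM in the week 5 libraries, then at 44.3, 42.8 and 38.8 at week 12. The groups were well apart (0.88, SE 0.13, adjusted p = 0.00273; limma), and without the libraries low in choroid plexus genes, with 1 week 5 library left, the change was 0.98 and the adjusted p 0.0633. Nxpe4 stood at 1.25, 2.13 and 1.25 FPKM and then at 4.40, 3.20 and 3.32, all above week 5 (0.88, SE 0.15, adjusted p = 0.00806; limma). In Cck-/- it was at 4.08 ± 0.173 and 3.45 ± 0.36 FPKM without a call, and the difference was 1.07 (SE 0.21, adjusted p = 0.0275). Galnt15, an enzyme gene of protein O-glycosylation, rose from 6.33 ± 1.79 to 10.6 ± 1.61 FPKM (mean ± SD, n = 3; 0.68). Its call was lost in 4 of 6 fits without 1 library, with the highest adjusted p (0.083; limma) without week 5 replicate 2.

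Genes of class I antigen presentation rose or leaned upward together. Class I molecules show peptides from inside the cell to T cells and consist of a heavy chain, such as H2-K1 or the nonclassical H2-T23, and the common light chain beta-2-microglobulin from B2m. The 250 bases upstream of the RefSeq start sites of the 3 called genes are shown to look for motifs known from class I promoters. Capitals mark matches on either strand to the X2 box core TGACG, the Y box core ATTGG and the interferon-stimulated response element. The last was searched as TTTC and TTTC with NN between them. The build is GRCm38.p6, and the positions are chr17:34000348-34000597 on the minus strand for H2-K1, 1 of whose 2 listed start sites was used, chr2:122147437-122147686 on the plus strand for B2m and chr17:36032702-36032951 on the minus strand for H2-T23.
H2-K1: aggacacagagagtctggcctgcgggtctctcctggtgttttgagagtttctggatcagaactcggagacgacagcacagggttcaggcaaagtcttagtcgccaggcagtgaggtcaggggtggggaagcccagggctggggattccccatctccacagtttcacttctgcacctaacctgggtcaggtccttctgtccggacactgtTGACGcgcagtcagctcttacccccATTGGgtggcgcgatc
B2m: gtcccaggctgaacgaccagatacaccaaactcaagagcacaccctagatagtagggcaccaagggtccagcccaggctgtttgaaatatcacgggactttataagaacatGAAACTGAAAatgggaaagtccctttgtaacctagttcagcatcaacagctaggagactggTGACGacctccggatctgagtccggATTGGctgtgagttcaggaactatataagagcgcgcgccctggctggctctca
H2-T23: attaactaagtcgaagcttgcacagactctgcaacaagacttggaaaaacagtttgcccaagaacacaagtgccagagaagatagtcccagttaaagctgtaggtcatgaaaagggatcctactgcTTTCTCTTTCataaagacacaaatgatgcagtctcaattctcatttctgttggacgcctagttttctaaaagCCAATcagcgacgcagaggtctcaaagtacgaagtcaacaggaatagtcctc
TGACG and ATTGG both stood in H2-K1 and B2m, on the same strand, with their first bases 25 bases apart in each. In H2-T23 ATTGG was present on the opposite strand and TGACG was not matched. The interferon element was matched in B2m, 139 to 130 bases upstream, and in H2-T23, 124 to 115 bases upstream. Only these letters were searched, so a missing match, as of the interferon element in H2-K1, does not show that an element is absent. Of 32851 RefSeq promoters of the same length, 17.8% held TGACG, 33.8% ATTGG and 2.98% the interferon element, and a match describes letters only, not binding.

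H2-K1 stood at 11.8, 10.7 and 12.7 FPKM at week 5, then at 23.2, 34.6 and 18.1 at week 12. B2m stood at 85.2, 93.4 and 102 FPKM and then at 158, 191 and 124. H2-T23 was at 4.73, 3.62 and 4.19 FPKM and then at 8.73, 11.9 and 7.32. In all 3 the week 12 values lay above those of week 5, and week 12 replicate 2 was the highest library. By limma, H2-K1 rose by 1.00 (SE 0.22, adjusted p = 0.0412). B2m rose by 0.73, with an SE of 0.16 and an adjusted p = 0.0377, and H2-T23 by 0.98, with an SE of 0.18 and an adjusted p = 0.018. H2-T9 and H2-T22, which the deposited table places at the same locus and whose reads are therefore uncertain, rose by 0.88 and 0.62, and Parp12, an interferon-inducible ADP-ribosyltransferase gene, by 0.59.

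Of 10 tested genes of the class I list, 3 rose (0.593% of all tested genes did), 0 fell and 10 had a positive sign, with a median of 0.59 against -0.0021 over all tested genes. In 8 of the 10 the groups did not overlap, against 17.7% of all genes. Among 5 members for peptide processing and loading, such as transporters and proteasome subunits, 0 were called by limma and the median was 0.58. Over the whole list 9 members had an unadjusted p under 0.05. In Cck-/- 4 members rose (5.29% of all tested genes did), with a median of 0.51, and 0 members had a called difference between genotypes (limma). The mean level of the list was 2.70, 2.75 and 2.81 in the week 5 libraries and 3.22, 3.61 and 3.03 at week 12, so replicate 2, the library with both Xist and Y-linked RNA, was the highest. Without week 12 replicate 2, 0 of the 10 passed, with adjusted p of 0.163 for H2-K1, 0.156 for B2m and 0.0828 for H2-T23 (limma), and the list median was 0.37. H2-T9, H2-T22 and Parp12, which are not in the list, lost their calls in 2, 4 and 5 of 6 fits without 1 library. Among these was the fit without week 12 replicate 2 (adjusted p = 0.0748, 0.105 and 0.145; limma). The count was also 0 without week 5 replicate 2, without the libraries low in choroid plexus genes, with the choroid plexus level as a covariate and with only the groups compared. It was 1 with no filter, with Xist as a covariate, and without week 5 replicate 1, without week 5 replicate 3 or without week 12 replicate 1.

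The interferon response list, 14 genes with 13 positive signs, had a median of 0.29, and 0 were called by limma (2 at an unadjusted p under 0.05). Microglia, the resident macrophages of the brain, showed a like lean. Of 22 homeostatic microglia genes 0 were called by limma, 11 had an unadjusted p under 0.05 (1821 of all 13487 tested genes did) and 21 had a positive sign, with a median of 0.31 in the transgenic and 0.078 in the Cck-/- libraries. Their mean level was 2.47, 2.69 and 2.71 at week 5 and 3.05, 3.14 and 2.70 at week 12, so that replicate 3 of week 12 lay among the week 5 libraries. The 14 activated microglia genes had a median of 0.31 against -0.033 in Cck-/-, again with 0 called by limma and 6 at an unadjusted p under 0.05, to be read against the same 1821 of 13487. Library weights or a pseudocount of 0.1 or 0.5 each gave 2 called homeostatic genes, and a mean FPKM filter of 5 or leaving out week 12 replicate 3 gave 1. A pseudocount of 0.1 or 0.5 also gave 1 called activated microglia gene. Whether these levels take part in the class I values was not tested.

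Of the myelin genes some fell in the transgenic libraries, and for some the change differed from that in Cck-/-. Myelin is the lipid-rich sheath that oligodendrocytes wrap around axons. Of 26 tested genes of myelin and mature oligodendrocytes, 8 fell (0.601% of all tested genes did), 0 rose and 22 had a negative sign, with a median of -0.21. In Cck-/- 20 of the 26 fell (6.53% of all tested genes did), with a median of -0.785. For 7 of the 26 the difference between genotypes was called, positive in each (0.452% of all tested genes), and for the other 19 it was not. In 13 of the 26 the transgenic groups did not overlap, against 17.7% of all tested genes. By role, 3 of 4 enzymes of myelin lipids and 5 of 14 myelin proteins fell, while 0 of 3 transcription factors were called by limma.

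Ugt8a and Fa2h encode the enzymes that make galactosylceramide and its hydroxylated fatty acids. Ugt8a stood at 59.0, 66.3 and 59.4 FPKM in the week 5 libraries, then at 38.4, 36.1 and 32.3 at week 12 (-0.78, SE 0.09, adjusted p = 0.000442; limma). Fa2h stood at 38.3, 36.5 and 36.6 FPKM and then at 24.3, 25.4 and 22.1 (-0.61, SE 0.07, adjusted p = 0.000233). For each gene the groups were clearly apart, and both calls held in every fit without 1 library and in every alternative run. In Cck-/- Ugt8a fell from 104 ± 11.3 to 34.2 ± 1.24 FPKM and Fa2h from 53.1 ± 4.15 to 21.0 ± 1.14 FPKM (mean ± SD, n = 3). The differences between genotypes were 0.80 and 0.68 (adjusted p = 0.0102 and 0.00408; limma). Thus the genotypes stood apart at week 5 and close together at week 12.

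Cldn11, which seals myelin lamellae, stood at 129, 129 and 127 FPKM in the week 5 libraries and then at 83.2, 85.8 and 68.0. Mal, a proteolipid gene of the myelin membrane, stood at 114, 118 and 128 FPKM and then at 84.1, 83.6 and 61.3. In both the 3 libraries of week 12 lay below week 5, with replicate 3 lowest, and the changes were -0.70 and -0.66 (adjusted p = 0.02 and 0.0421; limma). Mog, a surface protein of myelin, fell from 78.5 ± 3.64 to 53.1 ± 5.98 FPKM and Gsn, which encodes the actin-severing gelsolin and is not in the list, from 56.7 ± 1.35 to 34.7 ± 4.88 (mean ± SD, n = 3). The differences from Cck-/- were 0.90 for Cldn11, 0.90 for Mog and 0.99 for Gsn (adjusted p = 0.0416, 0.0135 and 0.0196; limma), and a difference was not called for Mal (0.81). Without week 12 replicate 3, Cldn11, Mal, Mog and Gsn lost their calls (adjusted p = 0.0803, 0.143, 0.0912 and 0.0616; limma). In all they lost them in 4, 5, 4 and 2 of 6 fits without 1 transgenic library. The call of the difference for Cldn11 was lost in 11 of 12 fits without 1 library.

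The count of myelin genes called depended on the libraries. It was 2, 3 and 2 without week 5 replicates 1, 2 and 3, and 5, 6 and 2 without week 12 replicates 1, 2 and 3, while the median stayed between -0.25 and -0.15. It was 2 without the libraries low in choroid plexus genes, which leaves replicate 3 alone at week 5, and the median was then -0.24. Mean levels of the myelin list were 5.92, 6.01 and 5.99 at week 5 and 5.76, 5.81 and 5.56 at week 12.

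**Figure D3:**
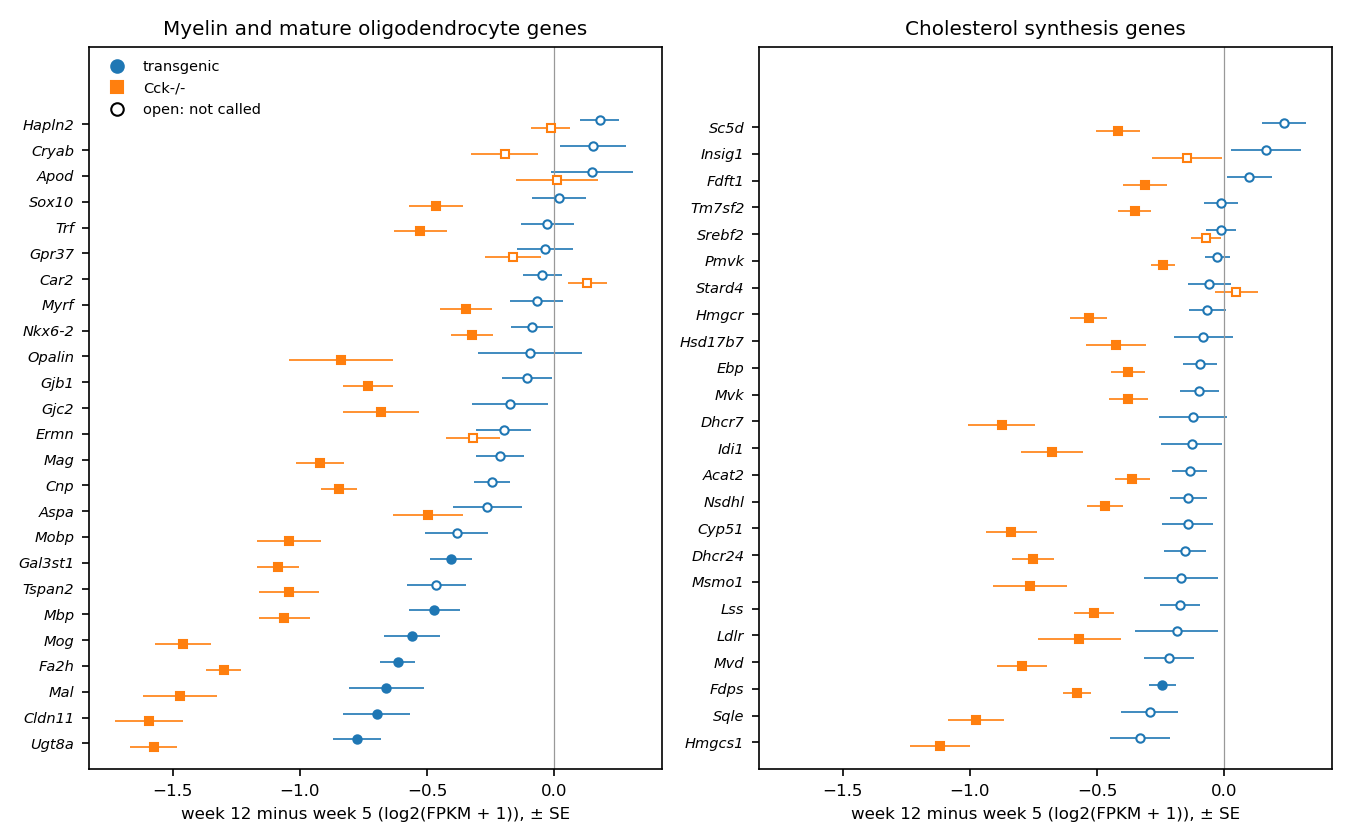
Change from week 5 to week 12 in log2(FPKM + 1), with its SE, for each tested gene of the myelin list (left, 25 genes shown) and of the cholesterol synthesis list (right, 24 genes), in transgenic (blue circles) and Cck-/- (orange squares) libraries, filled where called. Over the whole lists, the transgenic medians of -0.21 and -0.13 lie nearer 0 than the Cck-/- medians of -0.785 and -0.49, and 7 and 1 of the transgenic points shown are filled against 19 and 21 in Cck-/-.

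Earlier oligodendrocyte stages moved in a few genes. Gpr17, a receptor of differentiating oligodendrocytes, stood at 9.97, 10.3 and 9.18 FPKM at week 5, then at 5.82, 4.88 and 4.62 at week 12, with no overlap (-0.83, SE 0.13, adjusted p = 0.0064; limma). It fell by 1.05 in Cck-/-. The noncoding gene 9630013A20Rik fell by 0.50 against 1.52 in Cck-/-, a difference of 1.02 (adjusted p = 0.00172; limma). These were the 2 calls among 13 genes of newly formed oligodendrocytes (0.601% of all tested genes fell), with a median of -0.25. In Cck-/- 5 of the 13 fell (6.53% of all tested genes did), and the median was -0.25 as well. The transgenic median was -0.098 without week 5 replicate 2, -0.17 without week 12 replicate 2 and -0.13 without week 12 replicate 3. In each of the last 2 fits 1 transgenic call was left. Of 14 oligodendrocyte precursor genes 0 were called by limma, with a median of -0.078. At an unadjusted p under 0.05 there were 6 of the 14, against 1821 of all 13487 tested genes. Without the libraries low in choroid plexus genes, with 1 week 5 library left, Gpr17 stood at -0.74 (adjusted p = 0.269) and 9630013A20Rik at -0.39 (adjusted p = 0.348), neither called.

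Cholesterol synthesis, which supplies myelin membrane, moved little in the transgenic libraries. Of 24 genes, Fdps alone fell, from 40.6 ± 2.10 to 34.1 ± 2.58 FPKM (mean ± SD, n = 3; -0.24, adjusted p = 0.0404; limma). It lost its call in 4 of 6 fits without 1 library, with the highest adjusted p (0.149; limma) without week 5 replicate 1. Signs were negative in 21 of 24, with a median of -0.13. In Cck-/- 21 of 24 fell, against 6.53% of all tested genes, with a median of -0.49. A difference was called for 4 genes, each positive, against 0.452% of all tested genes. The mean level of the list was 4.28, 4.36 and 4.27 at week 5 and 4.20, 4.24 and 4.16 at week 12, without overlap. In Cck-/- it went from 4.65, 4.78 and 4.68 to 4.23, 4.30 and 4.02.

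Astrocytes and Bergmann glia, the radial astrocytes around Purkinje dendrites, were represented by 24 genes, of which 1 was called. Fabp7, a fatty acid binding protein of radial glia, stood at 127, 129 and 105 FPKM in the week 5 libraries, then at 64.9, 58.8 and 81.0 at week 12, without overlap (-0.82, SE 0.15, adjusted p = 0.0168; limma). It fell by 0.85 in Cck-/-. Its transgenic call was lost in 3 of 6 fits without 1 library, with the highest adjusted p (0.0801; limma) without week 12 replicate 2. The list median was 0.025. Of 14 reactive astrocyte genes 0 were called by limma (3 at an unadjusted p under 0.05). Serpina3n was one of these, chosen for mention after its values were seen. It stood at 17.1, 17.4 and 19.9 FPKM at week 5, then at 4.06, 3.39 and 1.99 at week 12. The groups did not overlap, and the SE was large at 0.59 (-2.24, adjusted p = 0.0834; limma). Cck-/- libraries varied within a group, at 2.05, 1.72 and 2.39 FPKM at week 5 and 1.96, 14.2 and 1.64 at week 12. At week 28 the Cck-/- values were 17.5, 2.96 and 3.07 FPKM.

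Vessel and matrix genes gave a single call. Nid1, which encodes nidogen of the basement membrane, fell from 7.43 ± 0.323 to 4.74 ± 0.87 FPKM (mean ± SD, n = 3; -0.56, adjusted p = 0.04; limma), the sole call among 16 basement membrane genes, with 14 negative signs and a median of -0.18. In Cck-/- 8 of the 16 fell (6.53% of all tested genes did), with a median of -0.33. The Nid1 call was lost in 5 of 6 fits without 1 library, with the highest adjusted p (0.156; limma) without week 12 replicate 2. Of 16 endothelial, 10 mural cell, 15 meningeal and 10 perineuronal net genes, 0 were called by limma in the transgenic libraries, with 1, 0, 3 and 7 at an unadjusted p under 0.05 and medians of 0.054, -0.093, -0.036 and -0.26. Over all tested genes 1821 of 13487 passed that unadjusted threshold.

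Beside genes such as Tuba1c, Cck, Pla2g4e, Scg5 and Nxpe4, whose values moved more in the transgenic libraries, other named genes with a called difference moved more in Cck-/-. The difference for Nxpe4 was lost in 8 of 12 fits without 1 library (adjusted p = 0.0729 without Cck-/- week 12 replicate 3; limma). Necab3, a calcium-binding protein gene, stood at 24.9, 17.6 and 14.7 FPKM in the week 5 libraries, then at 14.4, 14.6 and 17.6 at week 12, which overlap, while Cck-/- fell from 46.8 ± 2.54 to 16.1 ± 2.45 FPKM (difference 1.24, adjusted p = 0.0273; limma), a call lost in 8 of 12 fits without 1 library (adjusted p = 0.0782 without Cck-/- week 5 replicate 3). Eln, the gene of the elastic fibre protein elastin, stood at 3.03, 3.76 and 2.97 FPKM and then at 1.64, 2.28 and 1.64, apart but not called (-0.58, adjusted p = 0.0568), against 7.83 ± 1.72 and 1.58 ± 0.135 in Cck-/- (difference 1.18, adjusted p = 0.0102). Rhbdf2, a regulator of shedding of membrane proteins, stood at 0.631, 0.654 and 0.711 FPKM and then at 0.606, 0.477 and 0.613, against 2.07 ± 0.17 and 0.524 ± 0.0431 in Cck-/- (difference 0.92). Serpinb2, a protease inhibitor gene, had a difference of 1.08 at levels under 1 FPKM in all 6 transgenic libraries. Rhbdf2 and Serpinb2 reached 1 FPKM in the 3 Cck-/- week 5 libraries alone, so both entered the test only through the group that makes the difference, and their calls support nothing.

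Some genes went up in Cck-/- and less, or not, in the transgenic libraries. Zkscan16, a zinc finger gene, stood at 3.26, 4.46 and 3.79 FPKM and then at 4.64, 4.17 and 5.12, with overlap, against a rise from 2.11 ± 0.291 to 5.80 ± 0.636 in Cck-/- (difference -0.90, adjusted p = 0.00879; limma). Nr3c2, which encodes the mineralocorticoid receptor, rose from 5.20 ± 0.181 to 6.47 ± 0.496 FPKM in the transgenic and from 3.22 ± 0.152 to 6.59 ± 0.426 in the Cck-/- libraries (difference -0.58, adjusted p = 0.00366). Its transgenic rise of 0.27 lost its call in 5 of 6 fits without 1 library, with the highest adjusted p (0.15; limma) without week 12 replicate 2. Nr3c2 was the single call among 17 genes of the glucocorticoid response.

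Aaed1, which has an antioxidant domain, stood at 19.3, 17.7 and 17.8 FPKM and then at 14.9, 14.0 and 12.6, without overlap, and fell by 0.38 (adjusted p = 0.0235; limma), while it rose by 0.33 in Cck-/- (difference -0.71, adjusted p = 0.00567). Its transgenic call was lost in 4 of 6 fits without 1 library, with the highest adjusted p (0.1; limma) without week 5 replicate 1. Hist2h2bb, a histone gene that reached 1 FPKM in the 3 transgenic week 5 libraries and 1 other, went from 1.22 ± 0.222 to 0.656 ± 0.0998 FPKM without a call (-0.42, adjusted p = 0.0758), and rose by 0.51 in Cck-/- (difference -0.93, adjusted p = 0.0102). Without the transgenic week 5 group Hist2h2bb would not have passed the filter, so its call of a difference supports nothing. Over the 90 genes with a called difference, the gap between genotypes in mean log2 level was smaller at week 12 than at week 5 in 84, with medians of 0.11 and 0.48. Over all tested genes this held for 7921 of 13487, with medians of 0.062 and 0.083. The call itself uses these levels, so the counts describe the genes and test nothing.

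Neuronal gene lists gave no call. Of 21 Purkinje cell identity genes 0 were called by limma (1 at an unadjusted p under 0.05), 14 had a negative sign and the median was -0.033. Pcp2, the abundant Purkinje cell transcript, stood at 731, 605 and 685 FPKM at week 5, then at 596, 726 and 658 at week 12, which overlap (-0.03, SE 0.18, adjusted p = 0.97). Mean levels of the list were 5.58, 5.43 and 5.41 and then 5.41, 5.35 and 5.54, against 4.75, 4.53 and 5.13 in the transgenic libraries of week 28. In Cck-/- 3 members rose between weeks 5 and 12 (5.29% of all tested genes did), with a median of 0.14, and 0 differences between genotypes were called by limma. Of 25 Purkinje calcium and mGluR1 signalling genes 0 were called (4 at an unadjusted p under 0.05), 20 had a negative sign and the median was -0.076. A list of 6 genes that early SCA1 studies found reduced in Purkinje cells had a median of -0.036 with 0 called and 0 at an unadjusted p under 0.05. Of 19 channel genes of Purkinje firing 0 were called (2 at an unadjusted p under 0.05), with a median of -0.079.

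Lists of other neurons and of transmitter receptors held no call either. Of 17 granule neuron genes, 12 of inhibitory interneurons and 30 receptors for glutamate, GABA and glycine, 0 were called by limma, with 0, 1 and 7 at an unadjusted p under 0.05 and medians of -0.033, 0.0095 and -0.10. Among the receptors 26 of 30 signs were negative in the transgenic libraries and 12 of 30 in Cck-/-. Mouse Atxn1 stood at 6.32, 6.50 and 5.33 FPKM and then at 5.23, 4.91 and 6.08, with overlap and no call (-0.14, SE 0.15, adjusted p = 0.74; limma). Human ATXN1 reads were not analysed here. Cckbr, the gene of the CCK2 receptor, stood at 0.887, 1.55 and 0.959 FPKM and then at 1.20, 1.08 and 0.742, which overlap (-0.08, SE 0.22, adjusted p = 0.917). Cckar, the gene of the CCK1 receptor, lay between 0.00714 and 0.0455 FPKM in the 6 libraries and was too low to test.

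The mTORC1 kinase complex couples nutrients and growth factors to protein synthesis. Of 47 genes of its pathway 0 were called by limma (5 at an unadjusted p under 0.05), the changes ran from -0.21 to 0.34 and the median was -0.017. By role the medians were -0.0058 for the 5 subunits of the complex, -0.020 for 4 genes of TSC and Rheb, -0.081 for 12 of growth factor input, 0.039 for 17 of amino acid input and -0.011 for 9 of output. In Cck-/- 3 of the 47 rose and 3 fell, near the 5.29% and 6.53% of all tested genes, and 1 difference between genotypes was called, negative (0.215% of all tested genes).

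Lists of general cell functions held few calls in the transgenic libraries. Of 21 circadian clock genes Bhlhe41, a clock repressor, rose from 7.70 ± 0.122 to 10.5 ± 0.979 FPKM (mean ± SD, n = 3; 0.40, adjusted p = 0.00608; limma) and did so equally in Cck-/- (0.40), where 11 of the 21 rose (5.29% of all tested genes did). The transgenic call of Bhlhe41 held in every fit without 1 library and was lost with only the groups compared. Without the libraries low in choroid plexus genes, with 1 week 5 library left, its change was 0.42. In the transgenic libraries 11 of the 21 had an unadjusted p under 0.05 (1821 of all 13487 tested genes did) and 15 a positive sign, with a median of 0.15. In 11 of the 21 the transgenic groups did not overlap, against 17.7% of all tested genes. Of 67 cytosolic ribosomal protein genes 63 had a positive sign, with a median of 0.11, and 0 were called by limma (6 at an unadjusted p under 0.05). Of 49 oxidative phosphorylation genes 0 were called, with a median of -0.022 against -0.13 in Cck-/-, where 12 fell (6.53% of all tested genes did). Of 20 immediate early, 13 cytosolic chaperone, 22 stress response, 9 cell division, 14 immature neuron and 14 juvenile growth genes 0 were called by limma, with 4, 2, 0, 1, 4 and 1 at an unadjusted p under 0.05 and medians of -0.079, -0.073, -0.048, 0.0024, -0.045 and -0.053.

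Markers of neighbouring tissue were not called either, but the choroid plexus list had a positive sign in 20 of 20 members, with a median of 0.94 and 2 at an unadjusted p under 0.05. Without week 5 replicate 3, 3 members were called higher and the median was 1.67. It was 0.57 without week 5 replicate 1, 0.58 without week 5 replicate 2 and -0.78 without the libraries low in these genes. In Cck-/- the median was -0.60. Red blood cell genes had a median of 0.35 with 0 of 5 called by limma and 0 at an unadjusted p under 0.05, and 10 ependymal genes one of 0.079, with 0 called and 1 at an unadjusted p under 0.05. For 3 tested forebrain and midbrain genes and 4 of brainstem and cerebellar nuclei the medians were 0.23 and 0.11, with 0 called and 1 and 0 at an unadjusted p under 0.05, and for 5 sex-linked genes the median was 0.24, with 0 called and 0 at an unadjusted p under 0.05. The whole count of 161 went to 62 with the choroid plexus level as a covariate and to 46 without the libraries low in it. Without the libraries holding both Xist and Y-linked RNA it went to 51.

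**Figure D4:**
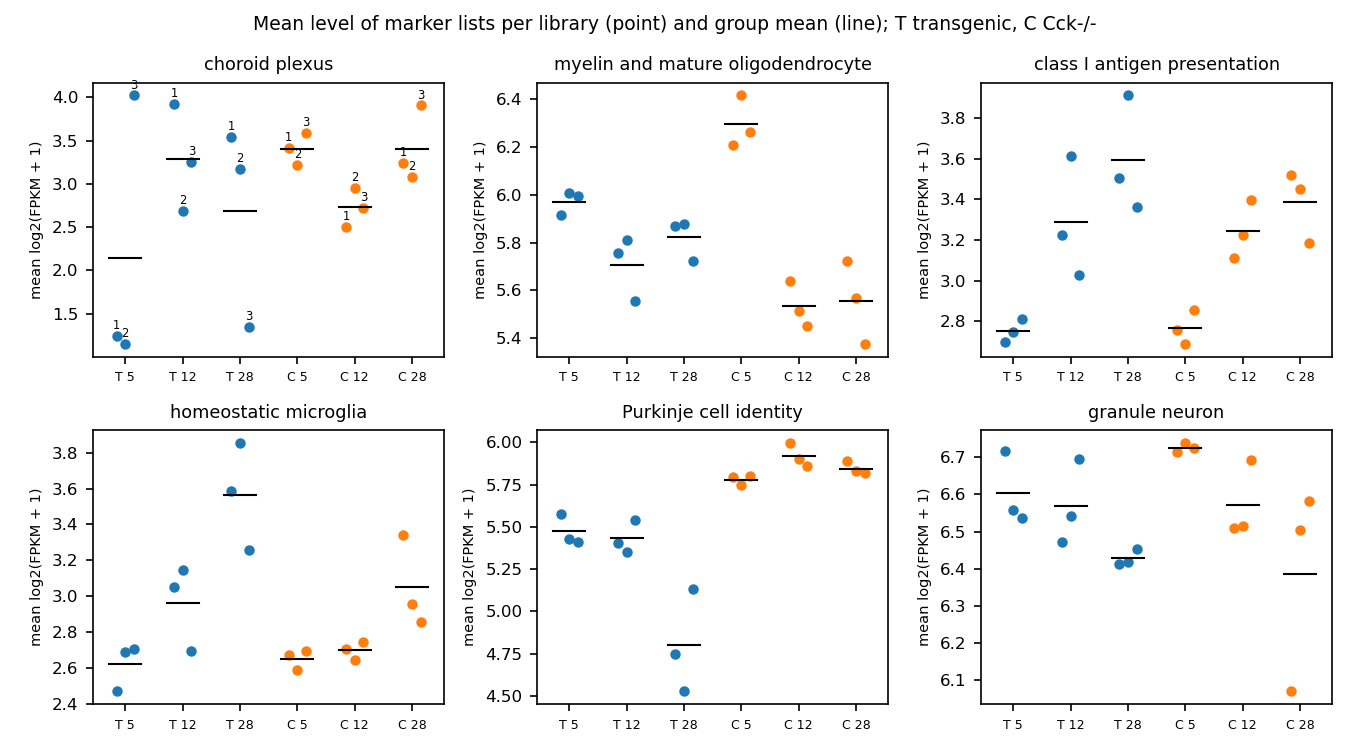
Mean log2(FPKM + 1) of 6 marker lists in each library (points) with the group mean (line), for transgenic (T, blue) and Cck-/- (C, orange) libraries at weeks 5, 12 and 28, each panel on its own axis that does not start at 0. Replicates 1 and 2 of transgenic week 5 sit at 1.25 and 1.15 in the choroid plexus panel, the class I list lies between 3.03 and 3.61 at transgenic week 12 against 2.70 to 2.81 at week 5, and the Purkinje cell list lies between 5.35 and 5.58 at both ages.

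By position, chromosome 2 held the largest share of calls, 27 of 1074 tested genes (2.51%), against 1.19% over the table. Chromosomes 1 and 5 held 1 call each. Between Scg5 and Mal on chromosome 2 (113776313 to 127656695, mm10), a stretch with 133 tested genes, 7 genes fell and 3 rose, and for 3 of them the difference between genotypes was called. These were Scg5, Pla2g4e and Fam227b. In a distal stretch of the same chromosome (175185165 to 177957288), 6 of 11 tested genes rose, by 0.35 to 0.86 on the log2 scale. All 6 carry predicted or clone-based symbols, the region is known for repeated zinc finger genes, and reads may be split between copies. The stretches were chosen after these values were seen, and the shares are descriptions.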

How the data were processed

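The authors aligned reads to mm10 with TopHat2 2.0.11 and used Cufflinks 2.2.1, per the submitters' processing notes. The labels name TRIzol and RNeasy for RNA and Illumina TruSeq for libraries. The deposited table gives Cuffnorm FPKM per gene symbol, per its name and headers. The annotation is not given in the sources used here, nor is Cuffnorm's normalization method. FPKM hold no counts, so depth is unknown, and no counting interval is given. FPKM summed to 402265 to 421101 in the 6 transgenic libraries.

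Log2(FPKM + 1) values were fitted with limma 3.58.1 (R 4.3.3; mean-variance trend) over all 18 libraries with a mean per group, which left 12 residual degrees of freedom and 1 spread per gene. Tests were two-sided with Benjamini-Hochberg adjustment over 13487 genes per comparison. Fold changes on this scale understate low genes. A pseudocount of 1 was used, and 10 tested genes held a value of failed status. The script was tested on simulated data. Alternatives were 2 other pseudocounts (0.1, 0.5), no filter or a mean FPKM of 5, median-ratio and quantile scaling, no trend, robust fitting, library weights, a replicate block, choroid plexus or Xist covariates, only the groups compared, and leaving out libraries.

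The 41 gene lists hold 824 entries, 748 of them tested, with some genes in more than 1 list. Named genes were the 12 largest called changes in each direction, the called list members (at most 4 per list, by p), the 8 largest called differences and the 8 largest shared changes per direction, and Cck, Atxn1, Cckar, Cckbr and Pcp2, with predicted, clone-named and small RNA genes and pseudogenes left out of the largest changes and differences. One named gene is counted in its list and not reported here. Members and lists were chosen with earlier results of these data known. Tuba1a, Tuba1b, Mcur1, Serpina3n, Ttr, Snurf, Snrpn and Gm8801 were named after their values were seen. Gene starts in the file were taken as counted from 0 and raised by 1. Promoters came from RefSeq GRCm38.p6. Figures used Python 3.11.15, pandas 2.3.3, numpy 2.4.6 and matplotlib 3.10.9.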

Additional observations from a re-analysis of the deposited data

Results flagged for a closer look

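For 20 named genes the change from week 5 to week 12 differed between transgenic and Cck-/- libraries by the limma test of the difference itself (log2, transgenic minus Cck-/-). Negative differences, where the transgenic libraries went down more or up less, were -2.36 for Tuba1c, -2.10 for Cck, -1.43 for Pla2g4e, -1.10 for Fam227b, -1.08 for Scg5, -0.93 for Hist2h2bb, -0.90 for Zkscan16, -0.71 for Aaed1 and -0.58 for Nr3c2. Positive differences among oligodendrocyte genes were 1.02 for 9630013A20Rik, 0.90 for Mog, 0.90 for Cldn11, 0.80 for Ugt8a and 0.68 for Fa2h. Other positive differences were 1.24 for Necab3, 1.18 for Eln, 1.08 for Serpinb2, 1.07 for Nxpe4, 0.99 for Gsn and 0.92 for Rhbdf2. The calls for Tuba1c, Cck, Pla2g4e, Fam227b, Scg5, Fa2h, 9630013A20Rik, Nr3c2 and Rhbdf2 held in all 12 fits without 1 library and in each other alternative in which the gene was tested. Fam227b, Rhbdf2 and Serpinb2 reached 1 FPKM in 3 libraries of a single group, so they entered the test only through the group that makes the difference. Hist2h2bb reached 1 FPKM in the 3 transgenic week 5 libraries and 1 other, so it too passed the filter only through that group.

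Some were less stable. The call for Nxpe4 was lost in 8 of 12 fits without 1 library, with the highest adjusted p (0.0729; limma) without Cck-/- week 12 replicate 3. Necab3 lost its call in 8 of 12 (0.0782 without Cck-/- week 5 replicate 3), Cldn11 in 11 (0.128 without transgenic week 12 replicate 2), and Serpinb2 and Gsn in 4 each (0.0613 without transgenic week 12 replicate 2 and 0.0652 without Cck-/- week 5 replicate 2). Ugt8a, Eln, Mog, Hist2h2bb, Zkscan16 and Aaed1 kept their calls in all 12 and lost them without the libraries low in choroid plexus genes. Mog and Hist2h2bb also lost theirs with the choroid plexus level as a covariate, and Mog without the libraries holding both Xist and Y-linked RNA. The causes were not tested.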

How the results depend on the processing

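The count of 161 genes in the transgenic comparison was 62 with the choroid plexus level as a covariate, 28 with only the groups compared, 46 without the 3 libraries of the series low in choroid plexus genes, 51 without the 2 that hold Xist together with Y-linked RNA, and 68 to 127 without 1 library (68 without week 12 replicate 2, 76 without week 12 replicate 3, 85 without week 5 replicate 1, 102 without week 5 replicate 3). The 90 differences were 367 with library weights, 41 with the choroid plexus covariate, 32 and 36 without the same libraries, and 43 to 95 without 1 library. They were 59 and 44 without transgenic week 5 or week 12 replicate 2, 55, 47 and 43 without Cck-/- week 5 replicates 1, 2 and 3, and 56 and 51 without Cck-/- week 12 replicates 1 and 3. The Cck-/- count of 1595, whose alternatives were chosen after seeing the data, was 3907 with library weights and 955 to 1214 without 1 library (1046, 976 and 986 without week 5 replicates 1, 2 and 3, and 955 without week 12 replicate 1). Other pseudocounts, filters, scalings, no trend, robust fitting and an Xist covariate kept each count within 1.5 times. With replicate numbers as a replicate block the counts were 141, 86 and 1544. Same-numbered transgenic libraries did not deviate together (correlations -0.19, -0.028 and -0.28), and no sample correlated best with its own number. Deviations within such small groups depend on each other, so these correlations cannot decide whether the numbers pair libraries. Over 38 called named genes, 588 refits kept the transgenic call and 204 lost it, and over 20 genes 472 kept the difference and 60 lost it, with no sign reversed. Refitted medians of the 41 lists moved by more than 1 SD in 84 cases. The causes of these shifts were not tested. Leaving out the low-choroid libraries leaves 1 week 5 library, assumed to vary like the others. Depth is unknown, so what it limits cannot be given.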

Other observations

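The largest change by size among tested genes was not called. Snurf, chosen after its values were seen, stood at 116, 172 and 186 FPKM in the transgenic week 5 libraries and at 1.57, 1.17 and 0.937 at week 12, without overlap (-6.14, SE 1.43, adjusted p = 0.0517; limma). The same drop to a few FPKM occurred within Cck-/- groups, where week 5 replicates stood at 121, 189 and 1.27 FPKM and week 12 replicates at 2.60, 125 and 193. Snurf shares its locus in the deposited table with Snrpn, which stood at 333, 250 and 248 FPKM at transgenic week 5 and at 368, 423 and 413 at week 12 without a call (0.54, SE 0.20, adjusted p = 0.238), so the split of reads between them is uncertain.

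The predicted gene Gm8801, also chosen after its values were seen, stood at 1.21, 2.23 and 2.45 FPKM at transgenic week 5 and at 0.0113 and 0.0305 in replicates 1 and 3 of week 12, and it was listed at 0 in replicate 2 (-1.52, SE 0.12). In Cck-/- its mean was 0.00708 FPKM at week 5 and 0.0224 at week 12. Gm8801 reached 1 FPKM in the 3 transgenic week 5 libraries alone, so it entered the test only through the group where it is high, and its call supports nothing.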
